A study of Rattus norvegicus with 18 samples.

Results

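Rat primary hepatocytes treated with 100 µM EMD for 24 h were set against hepatocytes treated with 30 µM EMD for 24 h. The comparison was chosen by the sample titles alone and takes 6 of the 18 arrays of the series, 3 for each dose. All 31042 probe sets that are not controls entered it. The question was whether the 24 h response to EMD was already at its full size with 30 µM, and for which genes the data bound the difference between the doses near 0.

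The cells came from livers of Wistar rats and were left 24 h to attach before the medium was replaced by one that held 100 µM EMD, 30 µM EMD or the vehicle, 0.1% DMSO. Per the study's methods, hepatocytes of each animal received every treatment. The study describes EMD as a dual agonist of PPARα and PPARγ. The same 3 treatments were also given for 72 h, each on 3 arrays. Replicates are labelled biological for EMD, and the study's methods also count 3 biological replicates for each treatment and time. Neither states that each replicate number was a separate animal. The p-values therefore speak only of the spread between arrays, which may be partly technical.

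PPARα is a nuclear receptor that binds fatty acids and fibrate drugs, pairs with RXR and raises transcription of genes that take up, activate and oxidise fatty acids. In rat liver its agonists enlarge the peroxisome compartment and raise peroxisomal, mitochondrial and microsomal fatty acid oxidation together. The pair of receptors binds a DNA element called DR1, a direct repeat of AGGTCA with 1 base between the copies.

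Promoter windows from RefSeq (GRCr8), 250 bases before to 50 bases after each gene's start, were searched on both strands for the DR1 letters AGGTCANAGGTCA with at most 1 of the 12 fixed letters different, a motif that contains the single AGGTCA site at each end. Of all 33469 windows, 0.439% held a match. Among the 10 genes named below as higher with EMD and bounded between the doses, 9 had a window and 1 held a match, in Acot4. Among 14 genes of the PPARα pathway, 12 had a window and 1 held a match, in Fabp1. The 9 windows of bounded genes lower with EMD held 0 matches, as did the 8 and 8 windows of the genes named below as higher and lower with 100 µM. Both matching promoters are shown because Acot4 and Fabp1 were high at both doses. The matched bases are in capitals, and read as the repeat on the opposite strand.
Acot4, chr6:109399811-109399853, + strand: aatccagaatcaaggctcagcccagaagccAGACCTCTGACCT
Fabp1, chr4:104749233-104749305, + strand: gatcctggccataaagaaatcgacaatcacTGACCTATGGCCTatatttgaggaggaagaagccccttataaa
The match ends 1 base before the start of Acot4 and 65 bases before that of Fabp1. A match of letters is a description and shows no binding.

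Values are log2 expression estimates made by RMA, so a difference of 1 is a change of 2-fold. Any 2 of the 6 arrays correlated at 0.991 to 0.996 over all probe sets. Of 6 hepatocyte markers, 5 had a probe set, and these averaged between 12.27 and 14.63 with 100 µM and between 12.18 and 14.69 with 30 µM, Alb, Apoa1 and Ttr among them. The summed endothelial markers lay between 6.23 and 6.34 with 100 µM and between 6.21 and 6.26 with 30 µM, and the summed stellate cell markers between 7.70 and 7.83 with 100 µM and between 7.65 and 7.68 with 30 µM. Macrophage markers summed to between 9.90 and 10.45 with 100 µM and between 9.93 and 10.36 with 30 µM, with Lyz2 at 9.53 and 9.49 on average. Cholangiocyte markers summed to between 8.25 and 8.86 with 100 µM and between 8.44 and 9.27 with 30 µM. The 3′ minus 5′ difference of the Gapdh control, a sign of RNA quality, averaged 0.22 ± 0.04 with 100 µM and 0.27 ± 0.03 with 30 µM (SD, n = 3 each). The part of these markers and of RNA quality in the results was not tested.

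No probe set was called different between the doses at 24 h in limma's moderated test over all 6 groups, with a smallest adjusted p of 0.292. The share called was thus 0% of the background of 31042, and 1421 probe sets (4.58%) lay under an unadjusted p of 0.05, of which 666 were higher and 755 lower with 100 µM. This fit did not pair arrays by replicate number. Paired fits, given below, called 3 probe sets on all arrays and 262 on the 6 arrays as 3 pairs. The median dose difference was 0.01, 95% of the differences lay between -0.33 and 0.25, and 265 exceeded 0.5 in size. The side of the large differences was uneven: 13 probe sets were lower with 100 µM by at least 1, and 0 were higher by as much. The 3 arrays of each dose did not overlap for 2092 probe sets higher with 100 µM (6.74%) and for 1797 lower with 100 µM (5.79%).

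The probe set with the smallest p was that of Mettl26, a gene of the methyltransferase-like family, which is named here after its values were seen. It stood at 7.39, 7.37 and 7.31 with 100 µM, against 7.93, 7.74 and 7.88 with 30 µM. The doses did not overlap, and the difference was -0.49 ± 0.08 (SE), with an adjusted p of 0.292 in limma. The largest difference in size belonged to probe set 1397573_at, which has no gene name here. Its values were 6.18, 8.04 and 6.31 with 100 µM, against 9.58, 8.29 and 9.12 with 30 µM, and the differences within replicates 1, 2 and 3 were -3.40, -0.25 and -2.81 (limma, adjusted p = 0.854).

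A p that misses the threshold does not show that both doses act alike. Each difference was therefore also tested against a margin of 0.5 on the log2 scale, or 1.41-fold, by 2 one-sided moderated tests in limma. By this test 27329 probe sets (88.0%) were called bounded, that is, the difference lay inside the margin at an adjusted p under 0.05. The median standard error of a difference was 0.12. With a margin of 0.3 the count was 0, with 16291 probe sets under an unadjusted p of 0.05 and a smallest adjusted p of 0.0532, so that these arrays place differences inside 0.5 but none inside 0.3 after adjustment.

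EMD responders were picked on the mean of both doses minus DMSO at 24 h, a contrast orthogonal to the difference between the doses. It was called in limma and at least 1 in size for 351 probe sets higher with EMD (1.13%) and 108 lower with EMD (0.348%). The rise had nearly the same size at both doses: the median change over the 351 probe sets was 1.59 with 100 µM and 1.64 with 30 µM, each against DMSO. Their median dose difference was -0.05, and 202 of the 351 were lower with 100 µM. That median turned to 0.03 without the 100 µM replicate 1 and was -0.11 without the 30 µM replicate 1. For the 108 lower with EMD, the median change was -1.32 with 100 µM and -1.14 with 30 µM, the median dose difference was -0.20, and 77 were lower with 100 µM. Without DMSO replicate 2, which changes the members, the median of the probe sets lower with EMD was -0.07.

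Of the 351 probe sets higher with EMD, 184 (52.4%) were bounded within 0.5, and of the 108 lower with EMD 23 (21.3%), against 88.0% of all probe sets. Among probe sets with a mean above the median probe set the share was 81.3%. With the replicate block on all arrays, described below, the share of those lower with EMD was 32.5%. In the 3-pair fit described there, 84.3% of those higher and 63% of those lower with EMD were bounded, against 96.6% of all probe sets. The bound uses the standard error, so a wider error of the probe sets not bounded follows from its definition. Those not bounded had a median standard error of 0.24 if higher and 0.27 if lower with EMD. It was 0.15 for the bounded ones of either direction, and 0.12 over all probe sets. Of the 167 probe sets higher with EMD and not bounded, 140 had a difference under 0.5 in size, 22 were lower with 100 µM by at least 0.5 and 5 were higher by as much. Of the 85 lower with EMD and not bounded, 69 had a difference under 0.5 in size, 14 were lower still with 100 µM by at least 0.5 and 2 were higher.

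**Figure D1:**
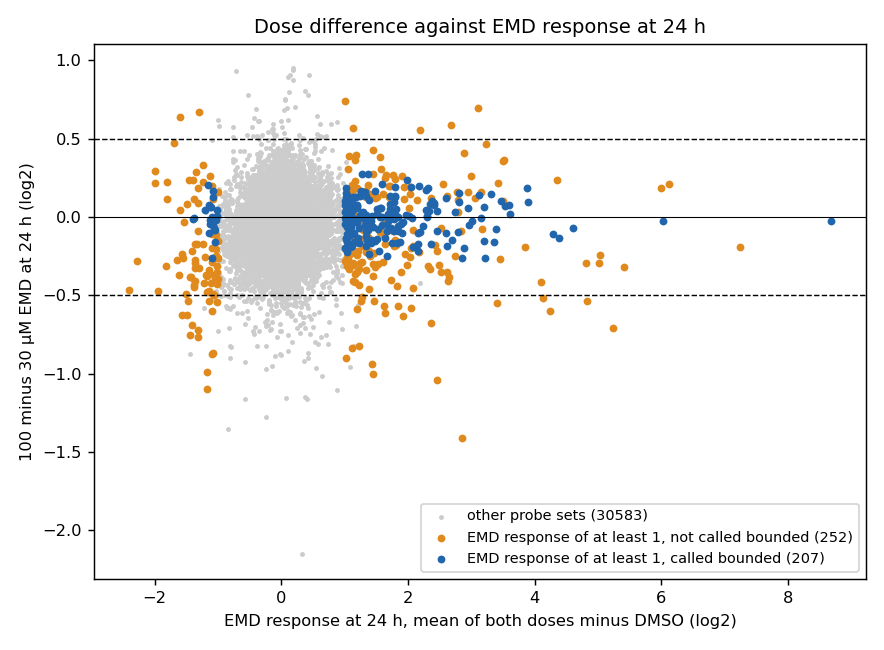
Dose difference at 24 h (100 minus 30 µM EMD, log2) against the EMD response at 24 h (mean of both doses minus DMSO, log2), 1 point for each of 31042 probe sets. Blue points are the 207 EMD responders called bounded, orange points are the other 252 responders, grey points are the remaining probe sets, and dashed lines mark the margin of 0.5. The response reaches 8.69, while no dose difference of a responder exceeds 1.41 in size.

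The 10 bounded genes with the largest EMD response are given next. Acot1, a cytosolic acyl-CoA thioesterase, had 12.05, 12.24 and 12.26 with 100 µM, against 12.03, 12.31 and 12.29 with 30 µM. The DMSO arrays lay at 3.57, 3.45 and 3.51, far below both. The dose difference was -0.03 with a 95% interval of -0.22 to 0.17, beside a response of 8.69, and the adjusted p of the bound was 5.18e-04 (limma).

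Cyp4a3, a microsomal fatty acid ω-hydroxylase, had 13.12, 13.35 and 13.26 with 100 µM, against 13.27, 13.38 and 13.31 with 30 µM. DMSO arrays stood at 8.67, 8.76 and 8.60. All 6 treated arrays were far above every vehicle array, the doses overlapped, and the interval of the dose difference reached from -0.54 to 0.40, slightly past the margin on the lower side because the bound rests on 1-sided tests (limma, adjusted p = 0.0411).

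Cpt1a, the carnitine palmitoyltransferase that controls entry of long-chain fatty acids into mitochondria, had 10.10, 10.65 and 10.73 with 100 µM, against 9.91, 10.60 and 10.66 with 30 µM. Its DMSO values were 6.64, 6.98 and 7.31, so replicate 1 was the lowest under each treatment. The dose difference was 0.10 with an interval of -0.34 to 0.55 (limma, adjusted p of the bound 0.0438). Acot4, a peroxisomal thioesterase whose promoter is shown above, had 10.74, 10.81 and 10.86 with 100 µM, against 10.80, 10.77 and 10.79 with 30 µM. Its DMSO arrays averaged 7.19, and the dose difference was 0.02 with an interval of -0.31 to 0.34.

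The other 6 genes named by the same rule were Aig1, a hydrolase of fatty acid esters, Gk (glycerol kinase), Acsl1 and Acsl3 (long-chain acyl-CoA synthetases), Txnip, which binds thioredoxin, and Eci1, a mitochondrial enoyl-CoA isomerase. Their responses were between 3.32 and 4.29, and their dose differences between -0.16 (Eci1) and 0.18 (Acsl1). The doses overlapped for 5 of these 6, while the arrays of Eci1 did not, at a mean of 13.28 with 100 µM and 13.44 with 30 µM. Acot1 and Cyp4a3 belong to families of closely related copies, and the probe set of Eci1 is of a type that can bind more than 1 transcript, so cross-hybridisation to relatives was not tested.

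**Figure D2:**
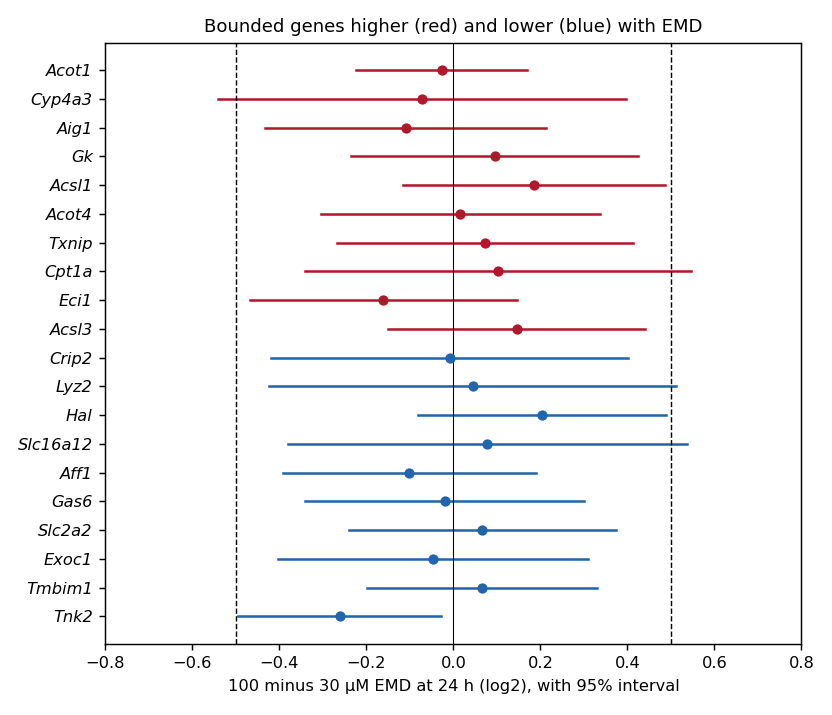
Dose difference at 24 h (100 minus 30 µM EMD, log2, horizontal axis) with its 95% interval from limma for the 10 bounded genes with the largest rise with EMD (red) and the 10 with the largest fall (blue). Dashed lines mark the margin of 0.5, and all 20 estimates lie between -0.26 (Tnk2) and 0.20 (Hal).

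Among genes lower with EMD, the bounded ones had smaller responses. Slc2a2, which encodes the glucose transporter GLUT2 of hepatocytes, had 10.81, 10.67 and 11.03 with 100 µM, against 10.78, 10.53 and 11.01 with 30 µM. DMSO arrays stood at 11.95, 12.03 and 11.82, above every treated array. The dose difference was 0.07 with an interval of -0.24 to 0.37 (limma, adjusted p of the bound 0.00646).

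Hal, the histidine ammonia-lyase that starts histidine breakdown, had 6.69, 6.48 and 6.46 with 100 µM, against 6.47, 6.28 and 6.26 with 30 µM. Its DMSO values were 7.59, 7.52 and 7.70. Each 100 µM array was above the 30 µM array of the same number by 0.20 to 0.21, and the interval of -0.08 to 0.49 kept it inside the margin (limma, adjusted p of the bound 0.0256). Crip2, a LIM-domain protein, had the largest fall of the bounded genes, a response of -1.37, and a dose difference of -0.01 with an interval of -0.42 to 0.40. The remaining 7, among them Lyz2 (lysozyme, a gene of macrophages), Gas6 (a ligand of TAM receptor kinases) and Tnk2 (a tyrosine kinase), had responses between -1.20 and -1.09. In the fit of 6 groups Tnk2 alone of the 20 had an interval that left out 0, from -0.49 to -0.03. In the 3-pair fit described below, the intervals of Hal (0.03 to 0.37) and Acsl1 (0.006 to 0.36) left out 0 as well.

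The study's list of 14 PPARα pathway genes was taken from the study of these arrays, so its direction is no independent evidence. All 14 were measured, 13 were higher with EMD in limma, 8 were bounded between the doses (57.1%), and the median dose difference was -0.04, against 0.01 over all probe sets. Averaging every probe set of each gene moved that median to 0.02. The bounded members were Cpt1a, Acsl1, Acsl3, Hadha, Cpt2, Slc25a20, Acox3 and Ucp2, which activate fatty acids, carry them into mitochondria or oxidise them, apart from the uncoupling protein Ucp2.

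The bifunctional peroxisomal enzyme Ehhadh had 12.77, 13.01 and 13.13 with 100 µM, against 13.04, 13.17 and 13.29 with 30 µM, and a mean of 5.82 with DMSO. Its interval of -0.74 to 0.36 in the fit of 6 groups was too wide for the bound (limma, adjusted p = 0.134). Fabp1, the liver fatty acid binding protein, had 13.04, 13.32 and 13.28 with 100 µM, against 13.08, 13.64 and 13.49 with 30 µM, with an interval of -0.60 to 0.22. In the 3-pair fit described below the intervals were narrower, -0.36 to -0.02 for Ehhadh and -0.38 to -5.5e-04 for Fabp1. Cd36, a fatty acid translocase, had 9.35, 9.71 and 10.80 with 100 µM, against 10.19, 10.56 and 11.24 with 30 µM. It was lower with 100 µM in each of the 3 replicate numbers, although the groups overlapped, and its response to EMD was 5.23.

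Fabp5, another fatty acid binding protein, was the member of this list that did not respond to EMD. It had 11.94, 11.69 and 11.47 with 100 µM, against 11.51, 11.16 and 10.95 with 30 µM, a difference of 0.49 with an interval of 0.08 to 0.91 (limma, adjusted p = 0.999). The 3-pair fit described below called Fabp5 higher with 100 µM (limma, adjusted p = 0.03). At 72 h it was higher with 100 µM by 1.16 (limma, 6 groups, adjusted p = 0.00583). The receptors themselves were bounded. The dose difference was -0.04 for Ppara, -0.02 for Ppard and 0.05 for Pparg, and their intervals all lay within -0.46 to 0.55.

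Wider lists of PPARα functions are set beside the 88.0% of all probe sets that were bounded, and most had a lower share. A gene of a list was read through its brightest probe set. Among probe sets with a mean above the median probe set, 81.3% were bounded, a share that mitochondrial β-oxidation was near. For peroxisomal fatty acid oxidation and assembly, 32 of 39 genes were measured, 23 were higher with EMD, 24 were bounded between the doses (75%), and the median dose difference was -0.07. For mitochondrial β-oxidation, all 21 were measured, 20 were higher with EMD, 17 were bounded (81%), and the median was -0.10. For lipid droplets and lipolysis, 13 of 17 were bounded (76.5%), with a median of 0.05. For fatty acid uptake, binding and activation, all 20 were measured, 9 were higher with EMD, 12 were bounded (60%), and the median was -0.04. For the CYP4 fatty acid hydroxylases, the family of Cyp4a3, 9 of 12 were measured, 3 were bounded (33.3%), and the median was -0.23, or -0.07 when every probe set of each gene was averaged. For ketone body synthesis 2 of 4 measured genes were bounded (50%), with a median of -0.35. All 28 measured genes of the respiratory chain and ATP synthase were bounded, with differences between -0.18 and 0.15, and so were 21 of 24 measured cell cycle genes (87.5%), a share near that of all probe sets. No member of any list was called at 24 h in the fit of 6 groups.

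**Figure D3:**
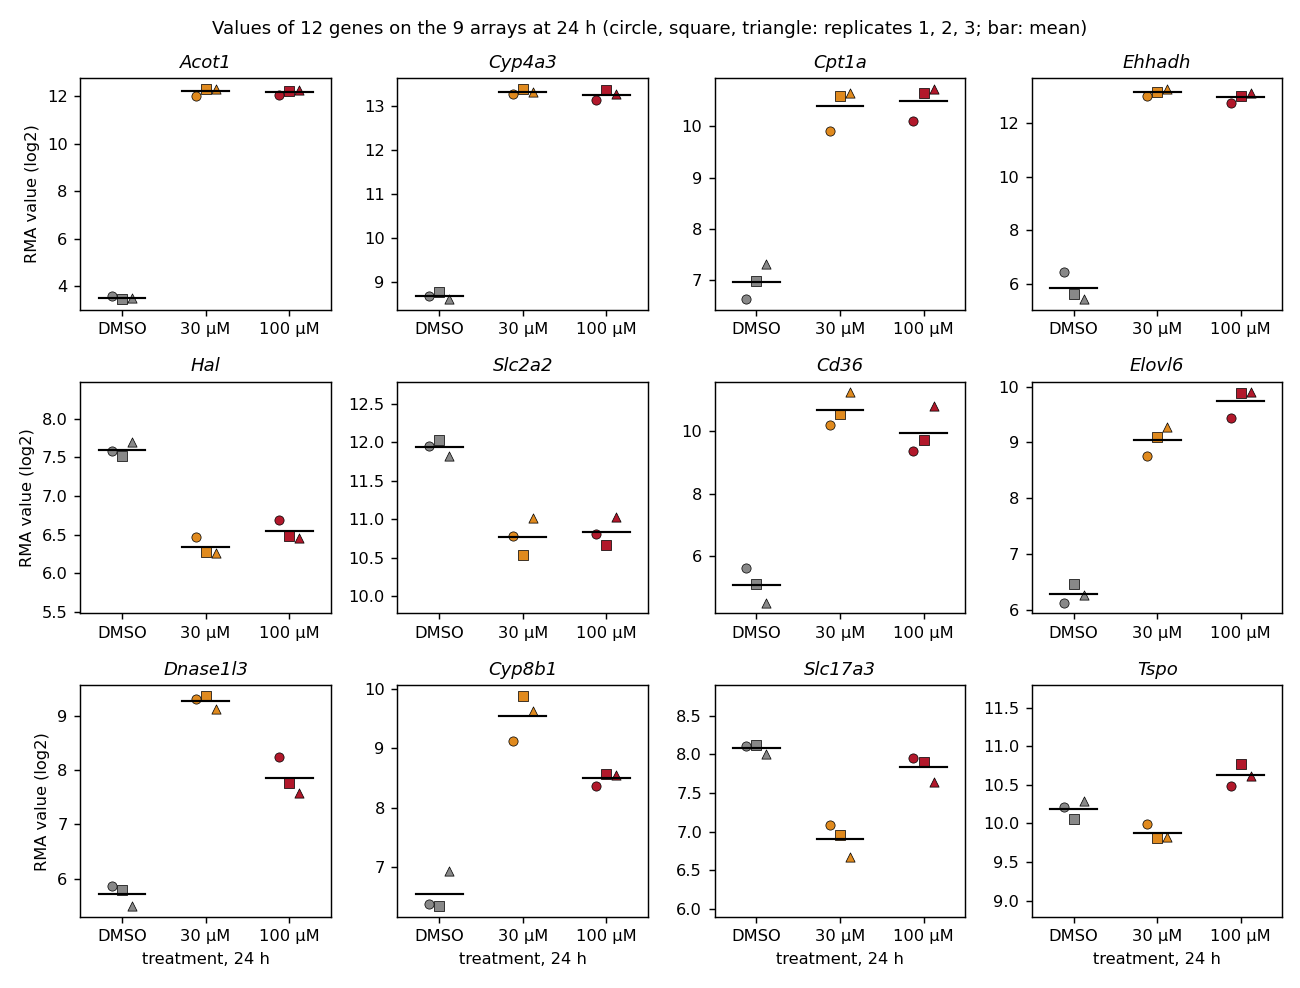
RMA values (log2, vertical axis) of 12 genes on the 9 arrays at 24 h, with DMSO, 30 µM and 100 µM EMD from left to right. Circles, squares and triangles are replicates 1, 2 and 3, bars are means of 3, and each panel has its own range. Acot1, Cyp4a3, Cpt1a, Hal and Slc2a2 are level between the doses within 0.5, whereas Dnase1l3 averaged 7.86 with 100 µM and 9.27 with 30 µM.

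The replicate numbers paired the samples of both doses: arrays with the same number deviated together from their group means (r = 0.63, 0.53 and 0.43). DMSO arrays at 24 h followed the same numbers unevenly. With the 30 and 100 µM arrays of their number, r was 0.517 and 0.535 for replicate 1 and 0.354 and 0.284 for replicate 2. It was 0.006 and 0.028 for replicate 3. With the replicate number as a block on all 18 arrays, limma called 3 probe sets (0.00966%), those of Dnase1l3, Gstm2 and Bdh1, all lower with 100 µM. A fit of the 6 arrays as 3 pairs, chosen after the data had been seen, called 59 probe sets higher with 100 µM (0.190%) and 203 lower with 100 µM (0.654%), with 4280 under an unadjusted p of 0.05. These 262 calls rest on 2 residual degrees of freedom. Without replicate 3 the 3-pair fit called 0, and 1355 with intensity trend and robust moderation, so the number is poorly fixed. With the replicate number as a random block on all arrays, at an estimated correlation of 0.152, limma called 0 at 24 h. The called probe sets had a median standard error of 0.25 in the fit of 6 groups, against 0.12 over all, and of 0.08 within pairs.

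The smallest called difference in the 3-pair fit was 0.42 in size and only 9 calls reached 1, all of them lower with 100 µM. Dnase1l3, a secreted nuclease, had 8.24, 7.77 and 7.58 with 100 µM, against 9.31, 9.37 and 9.14 with 30 µM. The DMSO arrays lay at 5.86, 5.78 and 5.49, so the 100 µM arrays stood between the vehicle and the lower dose without overlap. The difference was -1.41, or 2.65-fold (limma, 3 pairs, adjusted p = 0.00528, and 0.313 in the fit of 6 groups).

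Cyp8b1, the sterol 12α-hydroxylase that sets the share of cholic acid in bile acids, followed the same order. It had 8.37, 8.58 and 8.55 with 100 µM, against 9.12, 9.88 and 9.63 with 30 µM, and 6.38, 6.35 and 6.95 with DMSO. The difference was -1.04 (limma, 3 pairs, adjusted p = 0.00993). St8sia3, a sialyltransferase, had 5.54, 5.38 and 5.67 with 100 µM, against 6.67, 6.52 and 6.88 with 30 µM. Its 3 pairs differed by nearly the same amount, -1.13, -1.14 and -1.20, which gave the smallest adjusted p of the 3-pair fit, 0.00289.

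For several of the lower genes the replicates of a dose were spread about as widely as the dose difference or more, Dhrs7l1 and Slco1a4 among them. Dhrs7l1, named as a short-chain dehydrogenase/reductase, had 6.97, 7.68 and 8.40 with 100 µM, against 7.98, 8.80 and 9.76 with 30 µM. Slco1a4, an organic anion transporter of the hepatocyte membrane, had 4.11, 4.53 and 5.30 with 100 µM, against 5.03, 5.57 and 6.78 with 30 µM. In both the groups overlapped, while every 100 µM array was lower than the 30 µM array of its number by 0.91 or more. A further probe set of Slco1a4 differed by -0.86 (limma, 3 pairs, adjusted p = 0.0456). The other 5 genes with the largest drops were Pdzph1, Omd, Slurp2, Lmcd1 and Cyp17a1 (the steroid 17α-hydroxylase), with differences between -1.01 and -0.95.

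The 2 remaining calls of the block on all arrays were smaller. Gstm2, a glutathione S-transferase, had 10.66, 10.87 and 10.84 with 100 µM, against 11.24, 11.59 and 11.67 with 30 µM, and 11.69, 12.07 and 12.16 with DMSO. It therefore fell with EMD and fell further with the higher dose, by 0.71 (limma, all arrays with the block, adjusted p = 0.0237). Bdh1, which interconverts the ketone bodies acetoacetate and β-hydroxybutyrate, differed by -0.87 and -0.92 in its 2 probe sets. Only the first was called with the block (limma, all arrays with the block, adjusted p = 0.045 and 0.24).

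Among genes higher with 100 µM, Slc17a3, an organic anion transporter, had 7.95, 7.90 and 7.65 with 100 µM, against 7.09, 6.96 and 6.67 with 30 µM. With DMSO it had 8.11, 8.12 and 8.01, so the lower dose was the lower of both. The difference was 0.93 (limma, 3 pairs, adjusted p = 0.00588, and 0.474 in the fit of 6 groups). Tspo, the translocator protein of the outer mitochondrial membrane, had 10.49, 10.77 and 10.62 with 100 µM, against 9.99, 9.81 and 9.83 with 30 µM, with DMSO arrays between them at 10.06 to 10.29. Its difference was 0.75 (limma, 3 pairs, adjusted p = 0.016, and 0.308 in the fit of 6 groups).

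Elovl6, the elongase that makes stearate from palmitate, was the gene of this group with a large EMD response, 3.10. It had 9.43, 9.88 and 9.89 with 100 µM, against 8.75, 9.10 and 9.27 with 30 µM, and 6.13, 6.47 and 6.26 with DMSO, so each dose stood above the one before without overlap. The difference was 0.70 (limma, 3 pairs, adjusted p = 0.00993), and a further probe set differed by 0.59. The other 7 were Shc4 (an adaptor protein), Abcb1a (the efflux pump P-glycoprotein), Rsad2 (viperin, an interferon-inducible antiviral protein), Hspa1a (the inducible heat shock protein HSP70), Cenpk (a kinetochore protein), Plcxd2 and Slc3a2 (the heavy chain of amino acid transporters), with differences between 0.75 and 0.95. The doses overlapped for Rsad2 and for none of the other 9.

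**Figure D4:**
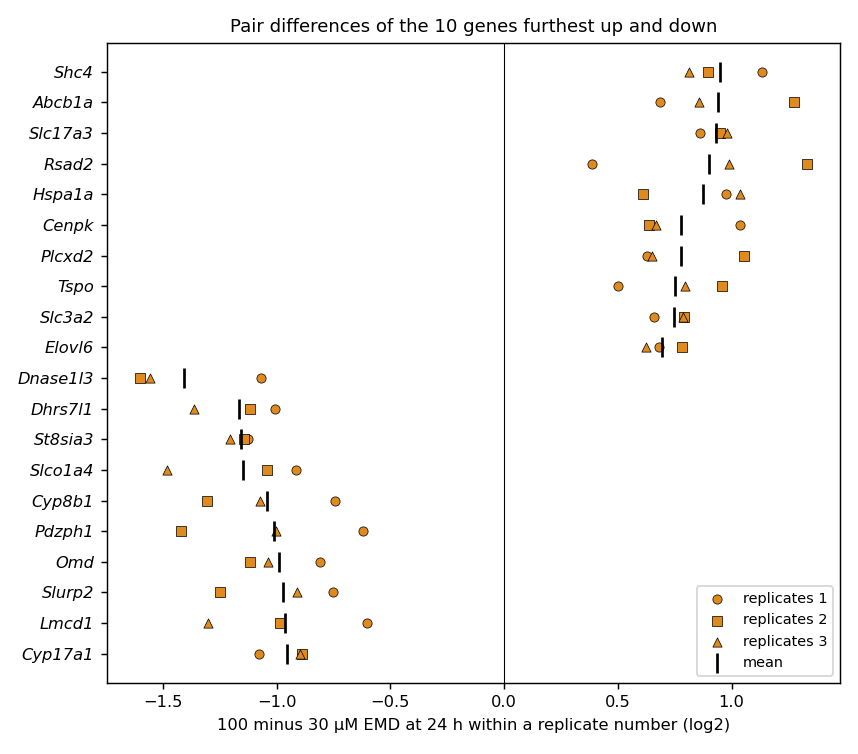
Difference between 100 and 30 µM EMD at 24 h (log2, horizontal axis) within each replicate number for the 10 genes with the largest differences in each direction among the calls of the 3-pair fit. Circles, squares and triangles are replicates 1, 2 and 3 and ticks are means; all pairs of a gene fall on 1 side of 0, as the choice of the genes required, and the means run from -1.41 (Dnase1l3) to 0.95 (Shc4).

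Set against DMSO, the group means of the 262 calls lay in every order. In 80 (30.5%) the 100 µM mean was further from DMSO than the 30 µM mean, in 74 (28.2%) it lay back toward DMSO, and in 108 (41.2%) it lay on the other side of DMSO. Over all probe sets these shares were 37.8%, 37.4% and 24.8%. Of the 262, 42 were EMD responders of at least 1. Of the 351 probe sets higher with EMD, the 3-pair fit called 4 higher and 21 lower with 100 µM, and of the 108 lower with EMD 2 higher and 15 lower. Among the members that rose with EMD and were lower with 100 µM were Cd36 at -0.71 (limma, 3 pairs, adjusted p = 0.022), Aqp7 (an aquaglyceroporin) at -0.60, Pc (pyruvate carboxylase) at -0.53 and Slc27a2 (a very long-chain acyl-CoA synthetase) at -0.45.

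The list calls that follow come from the 3-pair fit, which called 0.190% of all probe sets higher and 0.654% lower with 100 µM, and they are lost with the random block, which called 0. Over all probe sets 52.9% were higher with 100 µM. For the CYP4 fatty acid hydroxylases, with the median of -0.23 given above, Cyp4f5 was called lower, at -0.52. For fatty acid uptake, binding and activation, 2 were called higher (Fabp5 and Acsl4) and 3 lower (Cd36, Fabp7 and Slc27a2). For fatty acid synthesis and desaturation, 19 genes were measured, the median was 0.18, 16 were higher with 100 µM, and the 3-pair fit called 5 higher (Elovl6, Scd2, Fads1, Thrsp and Fasn) and 1 lower (Pklr, liver pyruvate kinase). Fasn, the fatty acid synthase, differed by 0.44 and 0.52 in its 2 probe sets, the first with an adjusted p of 0.0499 (limma, 3 pairs). The called probe set of Scd2 was dim, at a mean of 4.19 with 100 µM and 3.60 with 30 µM. Its 3 other probe sets differed by 0.25, 0.20 and 0.02 and were not called. For cholesterol synthesis and uptake, 20 of 25 genes were measured, all 20 were higher with 100 µM, with a median of 0.21, and 1 was called in the 3-pair fit (Acat2, 0.59). In the same list 10 of 20 were bounded within 0.5. At 72 h the median of this list was -0.20 and that of fatty acid synthesis and desaturation -0.15, opposite in sign to 24 h. In the fit of 6 groups 0 and 1 of their members were called at 72 h, the 1 higher with 100 µM.

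For NRF2 targets, genes of the antioxidant response, 20 were measured, the median was 0.19, and Akr7a3 and Srxn1 were called higher, at 0.62 and 0.58. Both averaged below DMSO at each dose. Akr7a3 averaged 11.43 with DMSO, 10.13 with 30 µM and 10.75 with 100 µM. Srxn1 averaged 11.31, 10.04 and 10.62 in the same order. For bile acid synthesis and transport, all 20 were measured, the median was -0.23, and the 3-pair fit called 3 lower (Cyp8b1, Slco1a4 and the phospholipid transporter Abcb4) and 2 higher (Abcb1a and Abcc2). Abcc2, a canalicular export pump, responded to EMD by -1.30 and averaged 9.29 with 100 µM and 8.62 with 30 µM. For ketone body synthesis, 4 of 6 genes were measured, all 4 were lower with 100 µM, and Bdh1 was called.

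For acute phase, complement and coagulation, 35 of 44 were measured, the median was -0.08, and the 3-pair fit called C5, C8a and Plg lower, by 0.64, 0.52 and 0.44. Over plasma carriers and apolipoproteins the median was -0.14, 1 of 21 was higher with 100 µM and 0 were called in the 3-pair fit. ER stress genes had a median of 0.04, and Sdf2l1 and Dnajc3, both chaperones of the endoplasmic reticulum, were called higher at 0.61 and 0.49. Sdf2l1 averaged 8.535 with DMSO, 7.862 with 30 µM and 8.474 with 100 µM, and Dnajc3 10.83, 10.67 and 11.16. Cdh1 and Cdh2, the epithelial and neural cadherins, were called lower in the 3-pair fit, at -0.73 and -0.42. The lists of p53 targets, inflammation and circadian clock genes had medians of 0.09, -0.03 and 0.03, with 1 call among them (Il1r2, a decoy receptor of interleukin-1, 0.64).

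The same doses were compared at 72 h, on 6 other arrays, which may come from the same animals. There limma called 388 probe sets higher with 100 µM (1.25%) and 575 lower with 100 µM (1.85%), and 171 of these 963 differed by at least 1. With the replicate block on all arrays the count was 1933. At 24 h, 340 of the 388 were higher with 100 µM as well (87.6%), with a median of 0.13 at 24 h beside 0.54 at 72 h. Of the 575, 523 were lower at 24 h as well (91%), with a median of -0.22 at 24 h beside -0.69 at 72 h. Both sets were picked by their 72 h calls, which favours larger values at 72 h, so these medians do not show growth with time. Over all probe sets the sign was the same at both times for 59.4%, and the dose differences correlated at 0.436 as a description over probe sets, which are not independent. Of the probe sets called at 72 h, 304 of the 388 (78.4%) and 310 of the 575 (53.9%) were bounded within 0.5 at 24 h. The number called at 72 h was between 141 and 2541 when 1 array was left out, the highest without the 100 µM replicate 1 at 72 h and the lowest without the 100 µM replicate 2 at 72 h.

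The interaction contrast tests directly whether the dose difference depended on time, and it called 2 probe sets (0.00644%), with 1804 under an unadjusted p of 0.05. Cd302, a C-type lectin receptor, had 9.85, 9.35 and 9.63 with 100 µM at 24 h, against 9.82, 9.68 and 10.02 with 30 µM at 24 h. Its dose difference was -1.77 ± 0.15 at 72 h and -0.23 ± 0.15 at 24 h (SE), and the difference between the times was -1.53 (limma, adjusted p = 0.0299). The unnamed probe set 1382914_at had dose differences of -1.86 at 72 h and 0.10 at 24 h (limma, adjusted p = 0.0147). Without the 100 µM replicate 1 at 72 h the interaction called 179, while the replicate block on all arrays called 0, and the interaction fitted on pairs alone called 113.

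Of the 262 calls of the 3-pair fit at 24 h, 235 (89.7%) had the same sign at 72 h, 80 were also called there, and 0 were called with the opposite sign. The 59 higher with 100 µM had a median of 0.71 at 72 h beside 0.58 at 24 h, and the 203 lower had -0.67 at 72 h beside -0.57 at 24 h. Dhrs7l1 differed by -3.72 at 72 h, Cyp8b1 by -2.82 and Slc17a3 by 1.68, each more than at 24 h. The difference between the times was not called for any of these 3 (adjusted p = 0.514, 0.746 and 0.783 for the interaction in limma). Hspa1a and Mettl26 differed at 72 h by 0.19 and -0.05, beside 0.88 and -0.49 at 24 h, and the difference between the times was not called (limma, adjusted p = 0.855 and 0.514). Of the bounded genes higher with EMD, Txnip was higher with 100 µM at 72 h, by 0.65 (limma, adjusted p = 0.0382), and of those lower with EMD, Slc16a12, a monocarboxylate transporter family member, by 0.83 (limma, adjusted p = 0.0479). The difference between the times was not called for either (adjusted p = 0.803 for both, interaction in limma). For the 351 probe sets higher with EMD at 24 h, the median dose difference was -0.27 at 72 h, with 3 called higher and 45 lower with 100 µM.

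**Figure D5:**
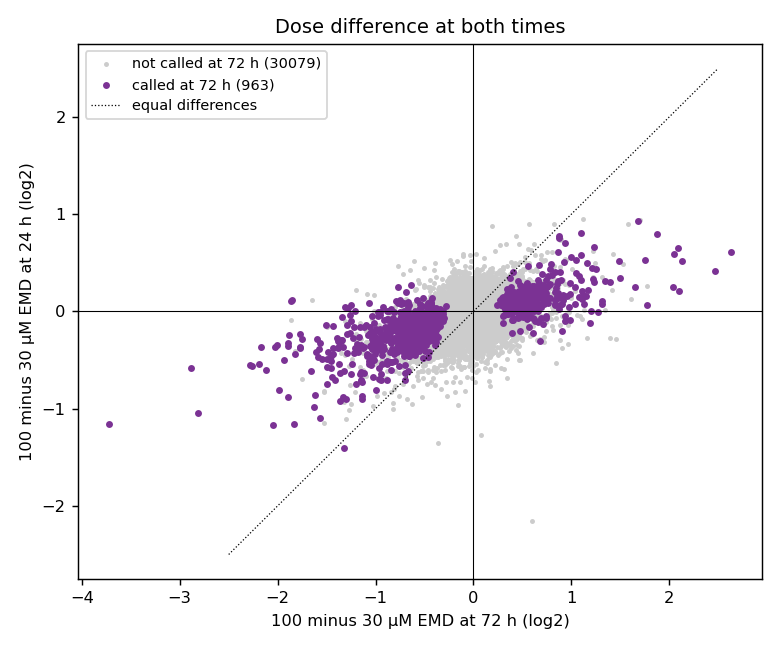
Dose difference (100 minus 30 µM EMD, log2) at 24 h on the vertical axis against that at 72 h on the horizontal axis, 1 point for each of 31042 probe sets. Purple points are the 963 called at 72 h, grey points the other 30079, and the dotted line marks equal differences. Purple points lie mostly on the same side of 0 at both times. They lie nearer to 0 at 24 h, which their choice by the 72 h values favours.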

How the data were processed

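Hepatocyte RNA was hybridised to 18 Affymetrix Rat Genome arrays, in 6 groups of 3 read from the labels. The table deposited by the authors holds log2 RMA values from Affymetrix Expression Console (version: not given in the sources used here). RMA subtracts background, makes the distributions of the arrays equal and summarises the probes of each set, which takes out any shift shared by most genes and compresses changes of dim probe sets. The number of arrays limits the precision. Of 31099 probe sets, 57 controls were left out. GEO's platform annotation gave 20826 probe sets 1 symbol, 436 several and 9780 none, and 20758 were found by gene ID in the GRCr8 table.

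limma 3.58.1 in R 4.3.3 was run with all 6 groups in 1 fit (12 residual degrees of freedom). Moderated tests were two-sided, p-values were adjusted by Benjamini-Hochberg over 31042 probe sets, the threshold was 0.05 and intervals are at 95%. A difference was called bounded where 2 one-sided moderated tests placed it inside 0.5. The study's methods state no test of differential expression. Same-numbered arrays of both doses at 24 h correlated in their deviations at 0.63, 0.53 and 0.43, and those with different numbers at -0.47 to 0.02. The paired fit with the replicate block on all arrays was an alternative, and the fit of 3 pairs was added after the data had been seen.

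Members and the 31 gene lists were chosen with earlier results of these data known. A gene of a list was read through its brightest probe set. Named were the 10 bounded genes with the largest rise and the 10 with the largest fall with EMD, the study's pathway genes and PPAR receptors, and the interaction calls. No gene passed the main test, so the 10 largest 3-pair calls in each direction that agreed in sign over all pairs, up to 4 called genes of a list, and further genes were named after their values were seen. The script was tested on simulated data. Scanner files were not used here.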

Additional observations from a re-analysis of the deposited data

Results flagged for a closer look

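Both probe sets called for a dose difference that depended on time are given here. For Cd302 the dose difference at 72 h minus that at 24 h was -1.53 (limma, adjusted p = 0.0299), and for the unnamed probe set 1382914_at it was -1.96 (adjusted p = 0.0147). With groups of 3 arrays, single arrays were not tested for standing apart.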

How the results depend on the processing

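At 24 h the count of called dose differences, 0, became 3 with the replicate block on all arrays, 9 with array weights, 262 as 3 pairs and 0 to 2 without 1 array. It stayed 0 under cyclic loess, equal array medians, trend and robust moderation, the 6 arrays alone, bright probe sets alone and a random replicate block. Bounded differences, 27329, were 12333 among bright probe sets (fewer were tested), 0 at a margin of 0.3 and 25315 to 27724 without 1 array. The share bounded of probe sets higher with EMD became 0% and 90.3% at margins of 0.3 and 1, and that of probe sets lower with EMD 0% and 83.3%, and 32.5% with the replicate block. Median dose differences were -0.110 to 0.0295 for those higher and -0.259 to -0.0685 for those lower with EMD without 1 array.

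The 72 h count, 963, was 1933 with the replicate block on all arrays, 1461 with the block on 6 arrays, 1538 with a random block (correlation 0.152), 3336 with array weights, 141 on 6 unpaired arrays and 141 to 2541 without 1 array. The interaction count, 2, was 0 with the block, on its 12 arrays alone and among bright probe sets, 45 with array weights, 113 paired and 0 to 179 without 1 array. The 3-pair count, 262, was 1355 with trend and robust moderation, 506 among bright probe sets, 0 unpaired, 3 with all arrays, and 0 (without replicate 3) to 335 without 1 pair. The 3-pair and random block settings were added after the data had been seen. The causes were not tested. Of the 20 named bounded genes, 8 stayed bounded under every alternative at the 0.5 margin, and none at 0.3. Of 31 list medians, 4 moved by more than the spread between pairs when every probe set of each gene was averaged.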
